A study of Mus musculus with 2 samples.

Results

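The cell junction and adhesion genes described here are the 67 genes, of 8251 with a measurement, whose symbol begins with the name of an integrin subunit, a cadherin or protocadherin, a claudin, a connexin, a tight junction protein, occludin, a catenin, a nectin or F11r. Each had at least 1 probe set that the array annotation assigns to a single gene, and the brightest probe set stood for the gene. They fell into 20 integrin genes, 24 genes of cadherins, protocadherins, catenins and nectins, 12 tight junction genes and 11 connexins, and 99 probe sets read them. The study measured polyadenylated RNA from testes of 10-day-old mice that were heterozygous (Mili+/-) or homozygous (Mili-/-) for a mutation of Mili, the gene of a germline Piwi protein. There was 1 array per genotype, and the Mili+/- animals served as the comparison, so both groups carry the mutant allele. The labels place the block of spermatogenesis in early meiotic prophase and the first dying cells at day 11, which is why day 10 was chosen. The labels do not give the kind of mutation, the strain or the number of animals on an array.

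Cells of the seminiferous tubule hold together through several kinds of contact. Integrins are pairs of an alpha and a beta subunit that bind the basement membrane or other cells. Classical cadherins and nectins join neighbouring cells and are tied to the actin skeleton through catenins and afadin. Claudins, occludin and F11r seal the space between cells and are anchored by the scaffold protein ZO-1, while connexins form channels that let small molecules pass. In the testis, Sertoli cells build the blood-testis barrier from these parts around the time the first germ cells enter meiosis, with claudin 11 as its main claudin.

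The upstream sequences of 4 genes of this barrier are shown first, because the brightest probe set of each was bright on both arrays, and the genes are returned to below. They are the 250 bases before the annotated start, from RefSeq on build GRCm38.p6, written 5′ to 3′ on the strand of the gene: Cldn11 at chr3:31149670-31149919 on the + strand, Tjp1 at chr7:65371245-65371494 on the - strand, F11r at chr1:171437311-171437560 and Gja1 at chr10:56377050-56377299 on the + strand. Capitals mark matches on either strand to the CCAAT box (CCAAT), the GC box (GGGCGG), the AP-1 site (TGAGTCA) and the TATA box (TATAAA).
Cldn11: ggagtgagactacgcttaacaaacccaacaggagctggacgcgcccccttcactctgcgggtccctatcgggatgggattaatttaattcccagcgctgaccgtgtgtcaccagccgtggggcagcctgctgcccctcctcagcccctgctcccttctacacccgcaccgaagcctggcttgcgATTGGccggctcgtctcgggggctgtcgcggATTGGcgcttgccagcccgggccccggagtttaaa
Tjp1: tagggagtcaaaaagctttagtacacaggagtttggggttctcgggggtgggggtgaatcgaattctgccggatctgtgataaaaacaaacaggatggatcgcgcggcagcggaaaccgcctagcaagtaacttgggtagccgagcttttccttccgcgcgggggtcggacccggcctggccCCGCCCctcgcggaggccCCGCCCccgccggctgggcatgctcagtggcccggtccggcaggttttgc
F11r: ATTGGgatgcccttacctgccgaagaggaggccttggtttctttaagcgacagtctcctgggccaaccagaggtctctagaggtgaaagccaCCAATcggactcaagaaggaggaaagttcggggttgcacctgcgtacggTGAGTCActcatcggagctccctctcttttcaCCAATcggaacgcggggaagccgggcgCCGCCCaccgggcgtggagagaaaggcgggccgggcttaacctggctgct
Gja1: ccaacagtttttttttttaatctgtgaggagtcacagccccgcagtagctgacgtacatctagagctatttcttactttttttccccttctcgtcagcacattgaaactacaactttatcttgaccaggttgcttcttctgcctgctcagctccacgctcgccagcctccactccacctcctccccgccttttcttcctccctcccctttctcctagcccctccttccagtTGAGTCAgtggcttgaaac
The Cldn11 sequence held 2 CCAAT boxes, starting 66 and 35 bases before the start, and Tjp1 held 2 GC boxes, at 68 and 50 bases. F11r held 3 CCAAT boxes, 1 GC box and 1 AP-1 site, and Gja1 held 1 AP-1 site 19 bases before the start. No TATA box was found in these 4. Over all 32851 promoters of the table and the same length, 33.8% held a CCAAT box, 32.7% a GC box, 4.46% an AP-1 site and 12.4% a TATA box. The arrays measured RNA and not these regions.

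The values are linear signal intensities as deposited. For comparison they were raised to a floor (6.3 for Mili+/- and 7.0 for Mili-/-, the 20th percentile of each array), converted to log2, and the median of the array was then subtracted. Differences are Mili-/- minus Mili+/- on that scale. Genes counted as past the brightness filter when the mean of both arrays reached the array median, which 4901 genes did, 59.4% of all. Their median difference was -0.13 and their central 95% lay between -0.65 and 0.53, so a member near -0.13 stood where the typical gene stood. No replicate exists and no test was possible. The only error that could be measured was how far probe sets of a gene differ, with an SD of 0.28 over 676 genes, which covers neither animals nor hybridisations. In whole testis, fewer cells of a type and less RNA per cell cannot be told apart.

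After centring, no junction or adhesion gene past the filter differed by 1.5-fold or more between the arrays. Of the 67 members, 22 (32.8%) passed the filter, and 45 did not. Their median difference was -0.13, equal to that of all genes to 2 decimals, with 11 members above the all-gene median and 11 below. None of the 22 was 2-fold or 1.5-fold higher or lower. Among all 4901 genes past it, 0.143% were higher by 2-fold or more, 0.265% were lower by as much (0.408% together) and 6.14% at least 1.5-fold different in either direction, so at these shares few members would be counted. The differences of the 22 ran from -0.35 for Ctnna2 to 0.55 for Itga7. Of the 22, 19 (86.4%) lay within 0.28 of the all-gene median, against 71.6% of all genes past the filter. The other 3 were Itga7, Cdh5 and Gja1, all on the high side. Taken against 0, 16 were lower and 6 higher after centring. Without centring the split was 11 and 11, with quantile normalization 13 and 9, and with a loess curve on brightness 12 and 10, so positions are given against the all-gene median. Under the same 3 scalings Itga7 was past 1.5-fold, at 0.66, 0.60 and 0.62, and after loess Cdh5 was too, at 0.59. In these scalings 3%, 2.90% and 2.92% of all genes past the filter were as much higher.

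**Figure D1:**
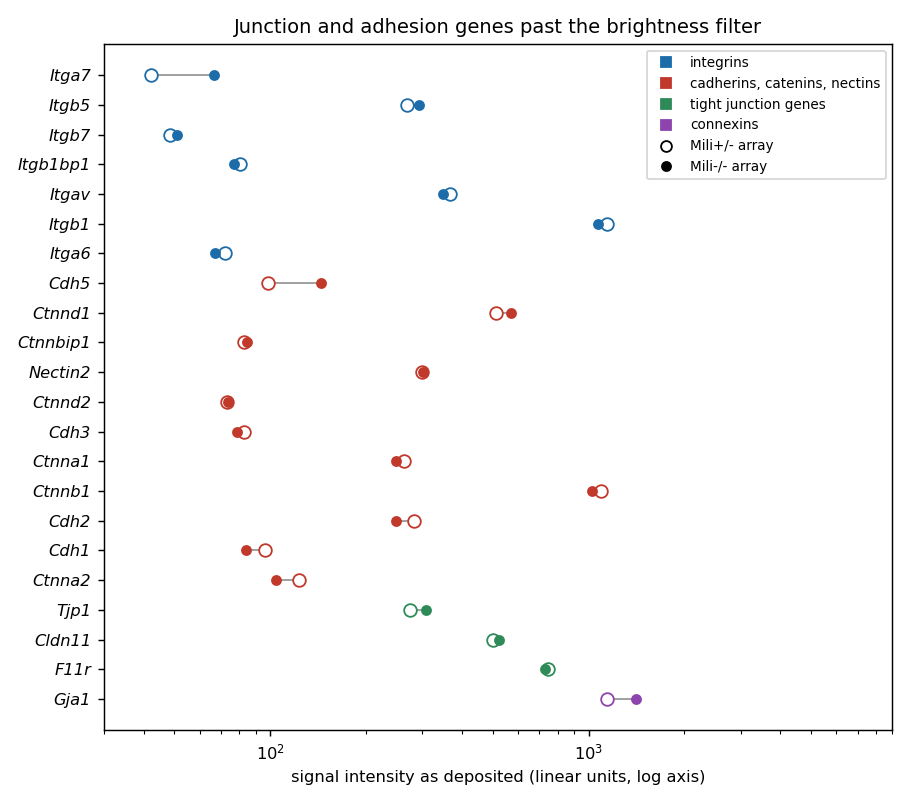
Deposited signal intensity (log axis) of the 22 junction and adhesion genes past the brightness filter, with the Mili+/- array as open and the Mili-/- array as filled circles, 1 array each. The circles of most genes nearly touch, and the widest gaps are those of Itga7 (42.1 and 66.7) and Cdh5 (98.2 and 145).

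Among the integrins, the subunits that passed the filter were close to equal on both arrays apart from Itga7. Passing were 7 of 20, with a median of -0.18. Itgb1, the beta subunit shared by most matrix-binding integrins, had signals of 1140 in Mili+/- and 1070 in Mili-/- (-0.20). Itga6, a laminin receptor subunit found on spermatogonial stem cells, had 72.3 and 67.2 (-0.22). Itgav, the alpha subunit of receptors for vitronectin and fibronectin, had 366 and 348 (-0.18), and its partner Itgb5 had 269 and 294 (0.02). These 4 lay within 0.15 of the typical gene. The probe sets used for Itgb1 and Itgav carry a suffix for shared sequence. Itgb1 had no unsuffixed probe set, and that of Itgav was below the filter (12.5 and 11.6). Itgb1bp1, whose product binds the tail of the beta 1 subunit, had 80.5 and 76.9 (-0.18), and Itgb7, a subunit of lymphocyte homing receptors, had 48.4 and 51.0 (-0.03). Itga7, the laminin receptor subunit of skeletal and smooth muscle, was the highest member, with 42.1 in Mili+/- and 66.7 in Mili-/- (0.55, or 1.47-fold). That difference exceeded those of 97.9% of the genes past the filter. The probe set carries a suffix for shared sequence, and an unsuffixed probe set of the same gene read 41.0 and 48.0 (0.12). Another unsuffixed probe set of Itga7 read 1.9 and 3.1, under the floor on both arrays. Markers of peritubular and stromal cells stood at a median of 0.02 (13 of 15 past the filter), and their part in the Itga7 value was not tested.

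The adherens junction genes centred on the typical difference, with the endothelial cadherin higher. Of the 24, 11 passed the filter, and their median was -0.19, with 5 above the all-gene median and 6 below. Cdh2, N-cadherin, which joins Sertoli and germ cells, had signals of 283 in Mili+/- and 248 in Mili-/- (-0.30). Cdh1, E-cadherin, known from undifferentiated spermatogonia, had 96.3 and 84.0 (-0.31), and Cdh3, P-cadherin, had 82.6 and 78.4 (-0.19). These 3 classical cadherins were thus slightly below the typical gene, by less than the SD between probe sets. Cdh5, VE-cadherin of endothelial junctions, had 98.2 and 145 (0.45, or 1.36-fold), above 96.5% of the genes past the filter, and it was read by 1 probe set.

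Alpha- and beta-catenins tie cadherins to actin. The catenin genes past the filter and Nectin2 showed no wide gap between the arrays. Ctnnb1, beta-catenin, which also acts in Wnt signalling, had 1091 and 1022 (-0.20). Ctnna1, alpha-E-catenin, had 263 and 249 (-0.19), and Ctnnd1, p120-catenin, which keeps cadherins at the surface, had 513 and 570 (0.04). Ctnna2, alpha-N-catenin, was the lowest of the 22, with 123 and 104.5 (-0.35). A second probe set of Ctnna2 stood at -0.30. Ctnnd2, delta-catenin, had 73.3 and 73.6 (-0.10), and Ctnnbip1, an inhibitor of beta-catenin, had 82.6 and 84.7 (-0.07). Nectin2, a Sertoli cell nectin that binds its counterpart on spermatids, had 300.0 and 302 (-0.10).

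The tight junction genes past the filter, all bright, stayed close to the typical gene. They were 3 of 12, and each lay above the 75th percentile in mean signal. Cldn11, whose upstream sequence is shown above, had signals of 499 in Mili+/- and 522 in Mili-/- (-0.05). Another probe set of Cldn11, with a suffix for relaxed probe selection, was below the filter at 14.3 and 26.8 (0.80). Tjp1, which encodes ZO-1, had 274.5 and 308 (0.06), and F11r, which encodes the junctional adhesion molecule JAM-A, had 747.5 and 727 (-0.15). Their median of -0.05 lay 0.08 above the all-gene median. Ocln, occludin, was below the filter at 30.9 and 25.7 (-0.38). Cldn3, a claudin of the forming barrier, was also below it at 29.0 and 29.3 (-0.10), and so was Cldn5, a claudin of endothelial and Sertoli cells, at 37.8 and 36.8 (-0.15). Sertoli cell markers had a median of 0.07 over the 18 of 20 past the filter, and their part in these values was not tested.

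Among the connexins only Gja1 passed the filter. Gja1 encodes connexin 43, the main gap junction protein between Sertoli cells and between Sertoli and germ cells, and it read 1142 in Mili+/- and 1410 in Mili-/- (0.19). This lay above 88.0% of the genes past the filter. The central 95% of genes at or above the 75th percentile in brightness ran from -0.61 to 0.34. A second probe set of Gja1 read 138 and 126 (-0.24), so the probe sets lay on opposite sides of the all-gene median of -0.13. Both carry suffixes, for shared sequence and for relaxed probe selection.

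Of the other 10 connexins, 3 had gaps wider than 1.5-fold at dim signals, and 24.1% of all 3350 genes below the filter had such gaps. Gja5, connexin 40 of arterial endothelium, had 25.4 and 45.3 (0.72). Gjc1, connexin 45, had 38.2 and 20.8 (-0.99) from a probe set with a suffix for relaxed selection, and Gjb2, connexin 26, had 24.5 and 15.5 (-0.77). Gjb2 stood at -0.09 with the floor at the 40th percentile. Gja5 was the only one of them that reached the median on 1 array, the Mili-/- array. Gja4, connexin 37, had 6.4 and 7.8, near the floor.

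**Figure D2:**
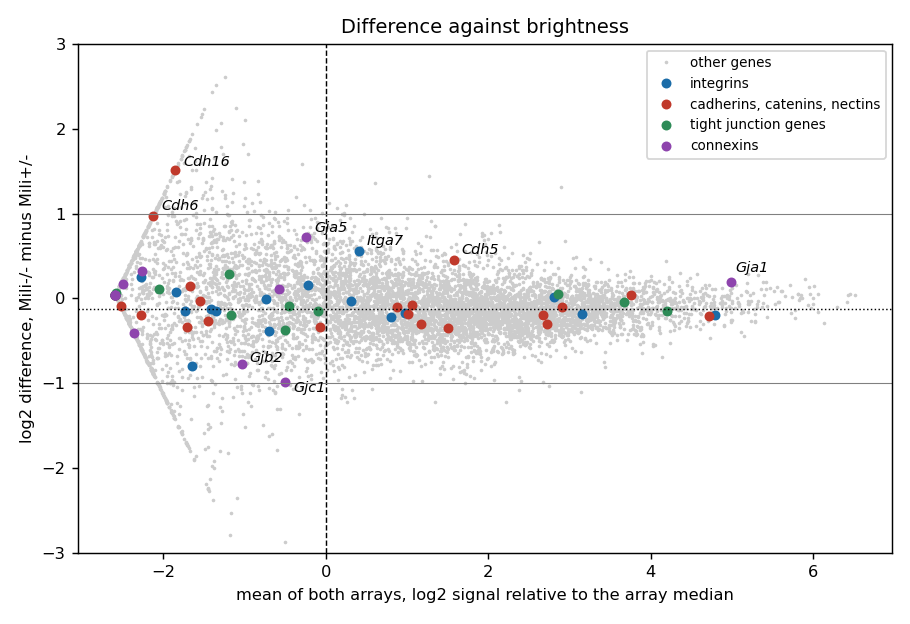
Log2 difference (Mili-/- minus Mili+/-) against mean brightness of both arrays (log2, relative to the array median) for all genes (grey) and the 67 members (coloured by group); the dashed line is the brightness filter, the dotted line the all-gene median and the solid lines mark 2-fold. Members right of the filter lie between -0.35 and 0.55, and the wider differences, such as Cdh16 and Gjc1, lie left of it.

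The 45 members below the filter included claudins, connexins and cadherins of other epithelia, of brain or of muscle, and integrins of leukocytes and platelets. No detection calls were used, so a dim value does not show absence. Under the floor on both arrays were 12, namely Cdh8, Cdh13, Pcdh12, Cldn2, Cldn7, Gja3, Gja10, Gjd2, Itga5, Itga8, Itgam and Itgb3, and no difference is given for them. A further 6 were under it on 1 array. The widest of these was Cdh16, kidney cadherin, with 2.9 under the floor in Mili+/- and 19.4 in Mili-/-. It stood at 1.51 with the floor, the only member past 2-fold. Cdh6, which is known from kidney and from brain, had 4.4, also under the floor, and 13.3, which gives 0.97 with the floor. Itgae, the alpha subunit by which T cells bind E-cadherin, had 16.2 and 10.1 (-0.79).

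Without the filter, 6 of 67 members (8.96%) differed by at least 1.5-fold, 3 in each direction, against 13.4% of all 8251 genes. For 2-fold it was 1 member (1.49%) against 3.7%. Genes below the filter had a central 95% range from -1.20 to 1.23, which holds 44 of the 45 dim members. Itgb4, the hemidesmosome subunit, had 27.1 and 22.4 (-0.38). Nectin3, the spermatid nectin, had 15.4 and 13.8 (-0.27), while its second probe set had 6.3 and 18.2 (1.42). Both arrays were dim for the leukocyte subunits Itgal (15.9 and 15.5), Itgax (23.2 and 25) and Itgb2 (10.5 and 11.9). Nearest to the filter were Ctnnal1, alpha-catulin, just outside it (41.1 and 35.2, -0.33), and Itgb7 just inside it.

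More than 1 probe set passed the filter for 9 members, which gives the nearest thing to a repeat measurement. Their probe sets stood apart by 0.04 (Ctnna2) to 0.44 (Itga7), all less than 0.56, which is 2 SD between probe sets. For 5 of the 9, namely Ctnna2, Ctnnd1, Itga7, Itgb5 and Nectin2, all probe sets lay on the same side of the all-gene median. Neither this count nor the one against 0.56 was taken over all 676 genes with several probe sets past the filter. No share stands beside them, and they are not read as agreement particular to the members. Itga7 (0.55 and 0.12) and Itgb5 (0.02 and 0.22) lay above it with both, and Ctnna2 (-0.35 and -0.30) below it with both. Nectin2 stood at -0.10 and 0.11, and Ctnnd1 at 0.04 and -0.09. For Gja1, Itgav (-0.18 and 0.18), Itgb1 (-0.20 and -0.05) and Itgb1bp1 (-0.18, -0.06 and 0.00) the probe sets fell on both sides.

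**Figure D3:**
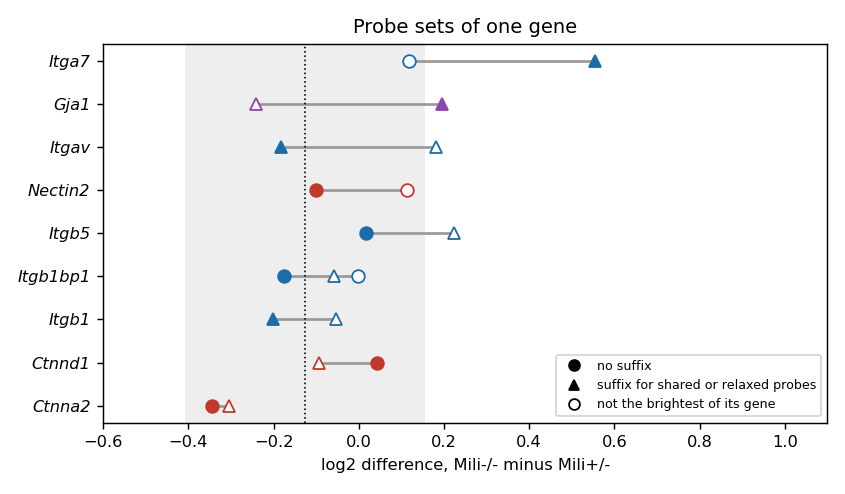
Log2 difference (Mili-/- minus Mili+/-) of each probe set past the filter, for the 9 members with more than 1; filled symbols are the brightest probe set of the gene, triangles carry a suffix for shared or relaxed probes, the dotted line is the all-gene median and the grey band spans 1 SD (0.28) between probe sets to either side. The spread within a gene is widest for Itga7, at 0.44.

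The partner proteins of these junctions were read from 4 lists, of scaffold and actin-binding proteins, polarity proteins, integrin adaptors and other adhesion molecules. Of 115 genes listed, 80 were measured and 46 passed the filter. Their median was -0.16, with 21 above the all-gene median and 25 below. None was 2-fold different. At least 1.5-fold lower were 6 of 46 (13.0%), against 4.37% of all genes past the filter, and 0 were 1.5-fold higher, against 1.78%. The count of 6 depended on the centring. With the values as deposited, quantile normalization or loess it was 2 (4.35%), Pard3 and Prkcz each time, against 1.86%, 2.08% and 1.96% of all genes. These are the genes among the 6 whose Mili-/- signal lay under that array's median of 41.55, so they passed through the array where they were higher. With both arrays required to reach their median the count was 4 of 42 (9.52%), Cd151, Ilk, Mcam and Sdc4, against 3.87% of all genes. With the filter at the 75th percentile it was 3, Cd151, Ilk and Mcam.

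Each list held at least 1 of the 6. Pard3, a polarity scaffold that places tight junctions, had signals of 55.6 in Mili+/- and 33.1 in Mili-/- (-0.86). Prkcz, the atypical protein kinase C of the same complex, had 56.6 and 35 (-0.80), but its other probe sets, both below the filter, stood at 0.92 and 1.27. The third protein of the complex, Pard6a, had 38.9 and 39.0 (-0.11) below the filter. Ilk, the integrin-linked kinase that binds beta subunit tails, had 290 and 195 (-0.68). Cd151, a tetraspanin that binds laminin-receptor integrins, had 519 and 361 (-0.64), while its other probe sets past the filter stood at 0.04 and 0.64. Sdc4, a syndecan co-receptor at focal adhesions, had 92.9 and 64.4 (-0.64), and Mcam, an adhesion molecule of endothelium and smooth muscle, had 231 and 165 (-0.60). Pard3, Ilk, Sdc4 and Mcam had 1 probe set each, so nothing on these arrays repeats them.

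By list, the 17 integrin adaptors past the filter had a median of -0.19, with 6 above the all-gene median and 11 below. Lims1, the PINCH protein that binds ILK, stood at -0.51 (215 and 163) and Fermt2, kindlin-2, which activates integrins, at -0.44 (161 and 129). At the other end was Tgfb1i1, the paxillin-like protein Hic-5, at 0.43 (227 and 329). These 3 were picked out with their values known. The 14 adherens and desmosome partners had a median of -0.10, with Vasp, an actin regulator, at -0.44. The 7 tight junction partners had a median of -0.27, with Mpdz, a scaffold of many PDZ domains, at -0.51 (77.6 and 58.7). The 8 other adhesion molecules had a median of -0.07, and among them Selplg, a selectin ligand of leukocytes, stood at 0.44.

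**Figure D4:**
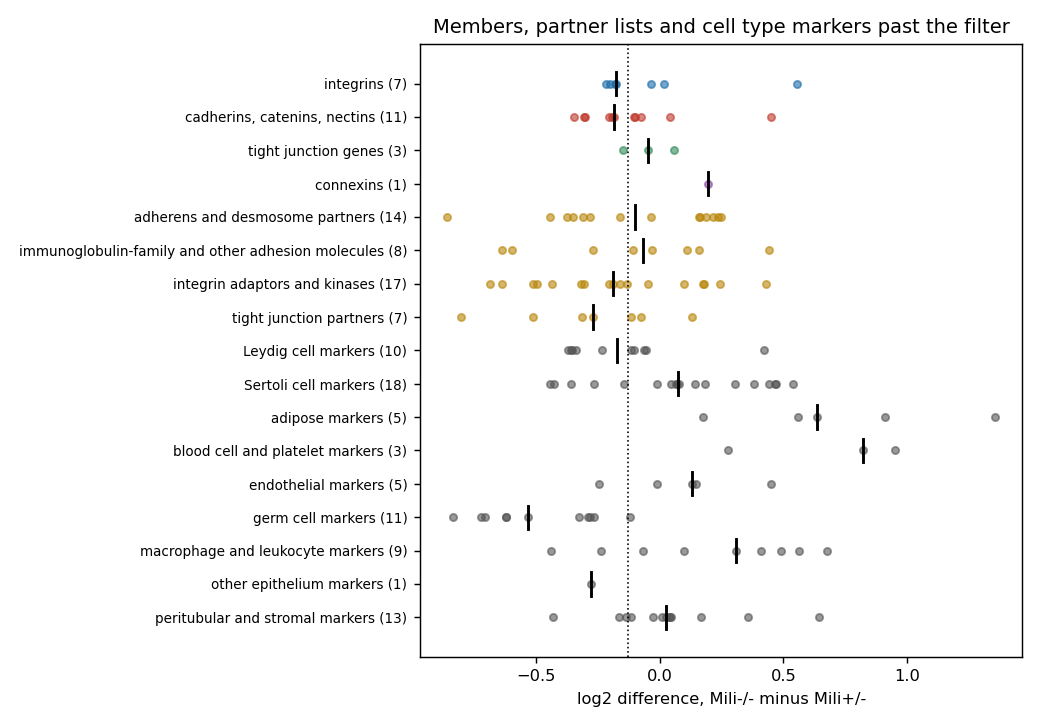
Log2 difference (Mili-/- minus Mili+/-) of every gene past the brightness filter in the 4 member groups (coloured), 4 partner lists (gold) and 9 cell type marker lists (grey), 1 point per gene with the number in brackets; black bars are medians and the dotted line is the all-gene median of -0.13. The integrin, cadherin and tight junction groups lie close to the dotted line, and the connexins, Gja1 alone, to its right (0.19). Germ cell markers lie to its left (-0.53) and adipose and blood cell markers to its right (0.64 and 0.82, the latter from 3 genes, and 0.27 over all 10 measured).

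With the filter used here, all marker lists but that of Leydig cells lay further from the all-gene median than the integrin, adherens junction and tight junction groups. The germ cell, adipose, blood cell and leukocyte lists lay furthest, also further than the connexins, which were Gja1 alone. Members were taken out of the marker lists. Germ cell markers had a median of -0.53 over 11 of 15 past the filter (-0.29 over all 15), and 10 of the 11 lay below the all-gene median. All 15 together had a summed signal of 3982 in Mili+/- and 3347 in Mili-/-. The lowest was Sall4 (57.4 and 34.7, -0.84), which reached the median on the Mili+/- array alone. Sertoli cell markers had a median of 0.07, with 13 of 18 above the all-gene median. The 18 ran from -0.44 for Inhbb (164 and 130) to 0.54 for Amh (61.6 and 96.5). All 20 measured summed to 9027 and 10416. Of the members past the filter, Cdh1 and Itga6, known from spermatogonia, lay at -0.31 and -0.22. Of those tied to Sertoli cells or their barrier, Cldn11 lay at -0.05, Tjp1 at 0.06, F11r at -0.15 and Nectin2 at -0.10. Gja1 lay at 0.19 with its brightest probe set and at -0.24 with its second. Cdh2, which joins Sertoli and germ cells, lay at -0.30. How these values relate to the marker lists was not tested.

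Endothelial markers had a median of 0.13 over 5 of 13 past the filter, 4 of them above the all-gene median. All 13 summed to 726 and 818. Of the 5, Pecam1 was the highest (34.7 and 51.2, 0.45) and Eng the lowest (220 and 200, -0.25). Pecam1 reached the median on the Mili-/- array alone. With both arrays required to reach their median, the endothelial markers lay 0.19 above the all-gene median, against 0.26 with the filter used here. The endothelial members stood at different values, with Cdh5 at 0.45 and, below the filter, Gja5 at 0.72 and Cldn5 at -0.15. Peritubular and stromal markers past the filter ran from -0.43 for Myh11 (443 and 354) to 0.64 for Actg2, whose probe set carries a suffix for shared sequence. All 15 measured summed to 7711 and 8325. Leydig cell markers had a median of -0.17 over 10 of 13, and the 10 ran from -0.37 for Cyp17a1 to 0.42 for Igf1. All 13 summed to 3058 and 2973.

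Macrophage and leukocyte markers had a median of 0.31 over 9 of 15 and of 0.18 over all 15, which summed to 716 and 888.1. The lowest of the 9 was Lyz2 at -0.44 (110 and 87.5). Highest of the 9 was Cx3cr1 at 0.68 (35.2 and 60.8), which reached the median on the Mili-/- array alone. Blood cell and platelet markers had 0.82 over 3 of 10, with Tspo2 at 0.95. The middle gene of the 3, Alas2 (34.1 and 65.1), reached the median on the Mili-/- array alone. All 10 summed to 1556 and 2101, of which Hba-a1 gave 1397 and 1828. Over all 10 measured the median was 0.27. Adipose markers had 0.64 over 5 of 10, with Car3 at 1.36, another gene that reached the median on the Mili-/- array alone. Fabp4 (33.9 and 56.9), the middle gene of the 5, also reached it on that array alone. Over all 10 adipose markers measured the median was 0.60, and the 10 summed to 369 and 656. Only 1 of 14 markers of other epithelia passed the filter, Spint1 (-0.28), and the 14 summed to 224 and 257.5. No marker of the 9 lists was at exactly 0. Under the floor on both arrays were 3 leukocyte, 2 adipose, 2 epithelial, 1 blood cell, 1 endothelial and 1 germ cell marker. The part of these cell types in the values of the junction genes was not tested.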

How the data were processed

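The authors deposited 1 table of signal intensity values, linear and 1 for each probe set of an array; judged by the values, both arrays appear scaled to a common level, since the mean without the lowest and highest 2% was 99.99 on both. The tool and the background correction were not stated in the labels. Of 12488 probe sets, 66 controls were left out, 10833 had a single gene symbol, 396 had several and 1193 had none in the platform annotation. Symbols were updated by Entrez ID (10817 matched) with RefSeq genes of GRCm38.p6. Promoter entries matched 48 of 67 members, too few to compare sequence content, so only single sequences are shown.

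Values were floored, put on the log2 scale and centred, and the filter used the mean of both arrays. With 1 array per genotype there was no test, and the number of arrays limits the precision. The members and lists were chosen with earlier results of these data known. Named were 26 preset members, the 5 members of each group with the largest difference past the filter, members with several probe sets or nearest to the filter, the 2 partner genes of each list and the marker of each list with the largest difference, and others picked with their values known. On simulated data with planted changes the code was tested and found them. The planted changes lay in bright genes and were larger than any member difference given here, so finding smaller or dimmer ones was not tested. Alternatives changed the scaling, floor, filter, probe set choice and fold threshold. Python 3.11.15, NumPy 2.4.6, pandas 2.3.3, statsmodels 0.14.6 and matplotlib 3.10.9 were used.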

Additional observations from a re-analysis of the deposited data

Results flagged for a closer look

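Probe sets that the annotation assigns to several genes stayed outside the comparisons, and 8 of them carry protocadherin alpha genes, a cluster of neuronal cadherins that share their last exons. One of these, assigned to 9 genes, read 11.3 on the Mili+/- and 46.7 on the Mili-/- array, a log2 difference of 1.94, and is listed because data not used above were higher than in the Mili+/- control. Its mean lay below the brightness filter and its suffix marks relaxed probe selection. The 2 of the 8 past the filter stood at 0.41 (34.3 and 49.2) and 0.22 (174 and 219), and another with the relaxed-selection suffix, also assigned to 9 genes, stood at -0.04 (29.0 and 30.5).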

How the results depend on the processing

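Each result was recomputed under the alternatives, and 75 of 81 values of counts and group medians moved by at most 0.1 (log2, relative to the all-gene median) or 1.5 times. Leaving out the centring cannot change a median given relative to the all-gene median, so those values were fixed in advance. The stricter filters and the 3-fold threshold cannot raise a member count that was already 0. The floors lie under the filter, so changing them can hardly move results of members past it. The 75 are thus not read as a measure of stability. Without the filter 1 member was at least 2-fold higher (Cdh16), and the connexin median, 0.32 above the all-gene median from Gja1 alone, was 0.10. It was 0.59 with the filter on the brighter array, which admits Gja5 through 1 array, and 0.10 with the mean over probe sets. It had no value without suffixed probe sets, since both probe sets of Gja1 carry a suffix. The integrin median, 0.05 below the all-gene median, lay at 0.089 relative to it, so above, with the mean over probe sets and at 0.10 without suffixed ones. The count of partner genes at least 1.5-fold lower, 6 here, was 2 without centring, with quantile normalization and with loess, and 3 at the stricter filter, and without the filter 4 partner genes were 1.5-fold higher. These partner and list values were added after the data were seen. Of 140 medians of partner and marker lists, 124 moved by at most 0.1. The adherens partners lay at -0.20 relative to the all-gene median at the stricter filter and at 0.16 with the mean over probe sets, and the germ cell markers at -0.24 without the filter, against -0.41 with it. The blood cell markers lay at 0.95 relative to that median, at 0.33 without the filter and at 0.41 at the stricter one. The leukocyte markers lay at 0.43, at 0.24 without the filter and at 0.22 with the mean over probe sets. Changing the filter cannot move the value of a single member, and leaving out the centring moves all members alike. A changed floor cannot move a member whose signals lie above it on both arrays. The probe set choice cannot move a member read by 1 unsuffixed probe set. Of 349 values of single members, these included, 344 moved by at most the SD between probe sets, a count that therefore does not measure stability. The other 5 were Itga7 (0.12) without suffixed probe sets, Gjb2 (-0.09) and Nectin3 (0.02) with the higher floor, and Itga5 and Itgb3 with no floor, whose signals lie under the floor on both arrays. Over all genes, 7 were 2-fold higher and 13 lower, against 16 and 7 as deposited, 15 and 10 after quantile normalization, 16 and 9 after loess and 157 and 148 without the filter. At 1.5-fold they were 87 and 214, at 3-fold 0 and 0. They were 16 and 27 with the filter on the brighter array, 2 and 6 with both arrays required to pass, 1 and 4 at the stricter filter (75th percentile), and 2 and 11 without suffixed probe sets. No paired analysis was possible because each genotype had 1 array. Members under the floor have no measurable difference.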

Other observations

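Several members are neighbours among protein-coding genes of the RefSeq annotation, in 9 adjacent pairs. In 1 pair both passed the brightness filter, the E- and P-cadherin genes Cdh1 (-0.31) and Cdh3 (-0.19), and the gap between them was under 0.28, the SD between probe sets. Cdh5 (0.45) adjoins Cdh11, a cadherin of mesenchymal cells, which was dim (11.5 and 13.7, 0.14). The connexin genes Gjb2 (-0.77) and Gjb6 (8.6 and 2.5, -0.41) adjoin each other, both below the filter and the latter under the floor in Mili-/-. Cdh6 (4.4 and 13.3) and Cdh9 (6.9 and 0.8), also adjacent, were each under the floor on 1 array.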
